A study of Homo sapiens with 7 samples.

Results

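Imprinted genes are read mainly from the copy inherited from the mother or from the copy inherited from the father. A set of 10 such genes was chosen by name, and its members were looked up by symbol among the 13142 genes of the deposited expression table. H19, IGF2, PHLDA2, PEG10, MEST and PLAGL1 had a row, which makes 6 of the 10. CDKN1C, MEG3, PEG3 and NDN had no row in the table analysed and get no value here. The libraries came from BHT-101, a human anaplastic thyroid cancer cell line, and were RNA-seq of total RNA. The tested cells were 4 knockout (KO) clones of ASH1L, which encodes a histone H3 lysine methyltransferase. KO1 has a premature stop codon after residue 413 of the protein, KO2 after residue 610, KO3 after residue 2129 on both alleles, and KO4 has stops after residues 2169 and 2174. Each KO line was sequenced once and stands for a single clone. The wild type (WT) cells were sequenced as 3 biological replicates, and both groups grew in the same medium.

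Values are the authors' log2 RPKM, the log2 of reads per kilobase of exon per M (mega) reads, so that 0 is 1 RPKM and a step of 1 is a doubling. The level a gene shows without any read could be read from the table and gave effective library sizes of 44.0 to 70.4 M reads. From these, the reads behind each value were estimated. They came out whole to within 0.03 reads for 85.0% to 90.8% of the values under 50 reads, whereas for H19, IGF2 and MEST they are approximate. ASH1L itself stood at 2.69, 2.54, 2.42 and 3.74 log2 RPKM in KO1 to KO4, against 3.34, 3.3 and 3.22 in WT1 to WT3, so KO4 was above WT in its transcript level. A premature stop need not change that level, so it does not check the labels. WT replicates correlated with each other at 0.988 to 0.995 across genes, and the median gene had an SD of 0.3 log2 units over the clones and 0.1 over the WT replicates. Of the listed thyroid follicular markers 3 of 14 had a row (PAX8, HHEX and DIO2), and thyroglobulin (TG), TSHR, SLC5A5, NKX2-1 and FOXE1 had none. The summed level of the 3 was 1.88 to 4.27 log2 RPKM in the clones, against 1.29 to 1.74 in WT. All 6 epithelial markers were present and above 0 in WT. No marker of fetal liver or placenta, tissues in which several of the imprinted genes are abundant, was among the rows (0 of 9). Of 10 leukocyte markers CD3D and CD14 had a row, summing to -1.06 to 1.58 log2 RPKM in the clones, against 3.18 to 3.57 in WT, and PTPRC had none. Of 11 stromal and endothelial markers 4 had a row, at 4.35 to 6.13 in the clones, against 5.68 to 5.79 in WT. The part of these markers in the results was not tested.

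At 11p15.5, H19 gives a non-coding RNA from the maternal copy and IGF2, a fetal growth factor, is read from the paternal copy. A methylated control region between them, bound by the insulator protein CTCF on the unmethylated copy, decides which of the pair reaches shared enhancers. PEG10, MEST and PLAGL1 are read from the paternal copy, with methylation of the silent maternal promoter region, and PHLDA2 from the maternal copy. Many cancers lose or gain such marks. Neither methylation nor the allele of origin was measured in these libraries.

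Sequences are shown for H19 and PLAGL1, the most variable members, and for MEST, the steadiest. H19 carries in its exon the hairpin of miR-675, whose mature strands are given with their seeds (bases 2 to 8) in capitals, from RefSeq on GRCh38.p14.
miR-675-5p: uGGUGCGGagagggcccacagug
miR-675-3p: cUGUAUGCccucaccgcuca
The seeds of these 2 strands differ, and no level of either mature strand is given in the table. Promoter windows from RefSeq (GRCh38.p14), 250 bases before to 50 after a transcription start, are given for 3 of the 6 members. Where a member has several starts, the window with the most CpG is shown. Capitals mark CG, the dinucleotide that is methylated at imprinted control regions, and read the same on both strands. H19 is at chr11:2001217-2001516 on the minus strand, PLAGL1 at chr6:144008210-144008509 on the minus strand and MEST at chr7:130491835-130492134 on the plus strand.
H19: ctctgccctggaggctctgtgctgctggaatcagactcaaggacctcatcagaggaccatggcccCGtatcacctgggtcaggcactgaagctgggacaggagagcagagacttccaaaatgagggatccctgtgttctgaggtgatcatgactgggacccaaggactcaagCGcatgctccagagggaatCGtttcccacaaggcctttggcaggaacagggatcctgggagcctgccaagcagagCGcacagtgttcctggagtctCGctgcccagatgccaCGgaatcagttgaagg
PLAGL1: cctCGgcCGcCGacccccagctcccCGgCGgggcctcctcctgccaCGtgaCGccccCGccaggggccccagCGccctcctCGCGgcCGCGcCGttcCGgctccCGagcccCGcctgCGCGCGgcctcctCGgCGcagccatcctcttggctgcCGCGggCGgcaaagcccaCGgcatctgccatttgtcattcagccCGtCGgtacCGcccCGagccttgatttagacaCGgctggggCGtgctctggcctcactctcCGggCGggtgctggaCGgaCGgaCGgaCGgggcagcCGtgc
MEST: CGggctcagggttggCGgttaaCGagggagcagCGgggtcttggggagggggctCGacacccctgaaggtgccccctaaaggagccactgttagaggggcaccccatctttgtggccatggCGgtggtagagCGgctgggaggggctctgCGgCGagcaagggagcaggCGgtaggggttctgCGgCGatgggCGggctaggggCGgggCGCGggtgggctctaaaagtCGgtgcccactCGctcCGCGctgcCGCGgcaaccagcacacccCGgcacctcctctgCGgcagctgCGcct
The H19 window held 6 CG, and 66.3% of the 35116 promoter windows held as many or more. The PLAGL1 window held 39, with as many or more in 8.7% of windows, and the MEST window 25, with as many or more in 32%. The PLAGL1 windows not shown held 31, 3, 3 and 2 CG, and those of MEST 13, 22, 16 and 22. The median window held 14. IGF2, PHLDA2 and PEG10 are named only.

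H19 spread most widely of the 6 genes. Its RNA was raised 29.4-fold in KO2, was close to absent in KO3 and low in KO1, and in KO4 lay slightly above WT. The gene lies at chr11:1995176-2001470 on the minus strand (ENSG00000130600, hg38, GENCODE release 29). Its level was -2.93, 5.9, -5.83 and 1.82 log2 RPKM in KO1 to KO4, against 0.73, 1.19 and 1.12 log2 RPKM in WT1 to WT3. KO2 lay above every other library and KO1 and KO3 below every other, so the clones fell on both sides of WT. In estimated reads these are about 18, 10900, 2 and 719 in KO1 to KO4, against 271, 417 and 376 in WT1 to WT3. In KO3 the rounded read estimates gave a ratio of WT to clone of 131. Its 95% exact interval of 36.1 to 1080 covers counting error only. Each clone was set against the 3 WT replicates with limma across all genes that passed a low-value filter, the spread coming from the WT replicates alone. H19 was lower in KO1 by 15.4-fold (log2 difference -3.94 ± 0.23 SE, limma adjusted p = 3.95e-05). It was higher in KO2 (4.88 ± 0.23, limma adjusted p = 0.000171) and lower in KO3 (-6.84 ± 0.23, limma adjusted p = 1.91e-05). In KO4 it was 1.74-fold higher (0.8 ± 0.23, limma adjusted p = 0.0472), a call that was lost without WT2 (0.89, limma adjusted p = 0.106).

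Over the 4 clones as a group the H19 change had no fixed sign. The KO mean was -0.26 ± 5.17 log2 RPKM and the WT mean 1.02 ± 0.25 (SD, n = 4 and 3). The log2 difference of -1.28 ± 2.5 SE did not pass (limma adjusted p = 0.834). An exact permutation test, two-sided with 35 arrangements of the labels, gave p = 0.8. Its p is the doubled one-sided p, which with so few arrangements cannot fall under 0.05. Without KO3 the difference turned to 0.58. The range from the lowest to the highest library was 11.72 log2 units, and 28 of the 13142 genes (0.213%) had a range as wide. Among the 4 clones alone, KO2 was 8.21 ± 2.46 log2 units above the other 3, which did not pass. The difference was 10.27 ± 1.14 when KO4, the clone nearest to KO2, was left out. KO3 differed from the other clones by -7.42 ± 2.9, which did not pass either. That difference was -9.68 ± 1.54 without KO1, the clone nearest to KO3. Leaving out the nearest clone widens such a difference, and no other left-out library made either difference pass.

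IGF2, which shares its control region with H19, did not mirror it in these clones. It was low in every library, and lowest in KO1. IGF2 lies at chr11:2129112-2149603 on the minus strand (ENSG00000167244) and overlaps INS-IGF2, IGF2-AS and MIR483 in the annotation. Which of 2 overlapping genes a read came from is uncertain, and no source used here gives the strand setting of the counting. How far the overlap affects the IGF2 levels was not tested. IGF2 stood at -6.58, -3.26, -2.93 and -1.2 log2 RPKM in KO1 to KO4, against -1.46, -1.61 and -1.32 in WT1 to WT3. KO1, KO2 and KO3 lay below every WT replicate and KO4 lay above them all. These are about 3, 46, 40 and 213 reads in KO1 to KO4, against 143, 144 and 166 in WT1 to WT3. IGF2 did not pass the low-value filter and was tested in the fit over all 13142 genes. It was lower in KO1 (log2 difference -5.11 ± 0.28 SE, limma adjusted p = 2.97e-05). The read ratio of WT to KO1, from rounded estimates, was 41.3, with a 95% exact interval of 14.1 to 201. It was 3.47-fold lower in KO2 (limma adjusted p = 0.0053) and 2.76-fold lower in KO3 (limma adjusted p = 0.0103), and in KO4 the difference of 0.26 did not pass (limma adjusted p = 0.527). With 0.1 RPKM added to each value the KO1 difference shrank to -2.07 and still passed (limma adjusted p = 0.000228). The mean was -3.49 ± 2.25 log2 RPKM in KO and -1.46 ± 0.14 in WT (SD, n = 4 and 3), and the difference of -2.03 ± 1.14 SE (limma adjusted p = 0.425) became -1.0 without KO1. Side by side, KO1 had both genes low, KO2 had high H19 with lowered IGF2, KO3 had H19 near absence with lowered IGF2, and KO4 had both within 1 log2 unit of WT.

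Apart from IGF2, the nearest genes showed no swings of the size seen for H19. MRPL23, a mitochondrial ribosomal protein gene and the nearest on the side of lower coordinates, was at 3.51, 3.53, 3.54 and 3.46 log2 RPKM in KO1 to KO4, against 3.5, 3.59 and 3.6 in WT1 to WT3. The lysosomal protease gene CTSD, next to it, was at 5.95, 6.6, 5.92 and 6.35 in KO1 to KO4, against 5.61, 5.49 and 5.84 in WT1 to WT3. CTSD ranked the clones in the same order as H19, all above WT, with differences from the WT mean of 0.31, 0.96, 0.27 and 0.71 in KO1 to KO4. Beyond IGF2 on the other side, C11orf21 was at -2.12, -1.98, -2.77 and -0.43 log2 RPKM in KO1 to KO4, against -2.63, -2.45 and -1.92 in WT1 to WT3. The median of the 68 genes within 5 Mb of H19 differed from the WT mean by 0.07, 0.01, 0.09 and 0.02 log2 units in KO1 to KO4.

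**Figure D1:**
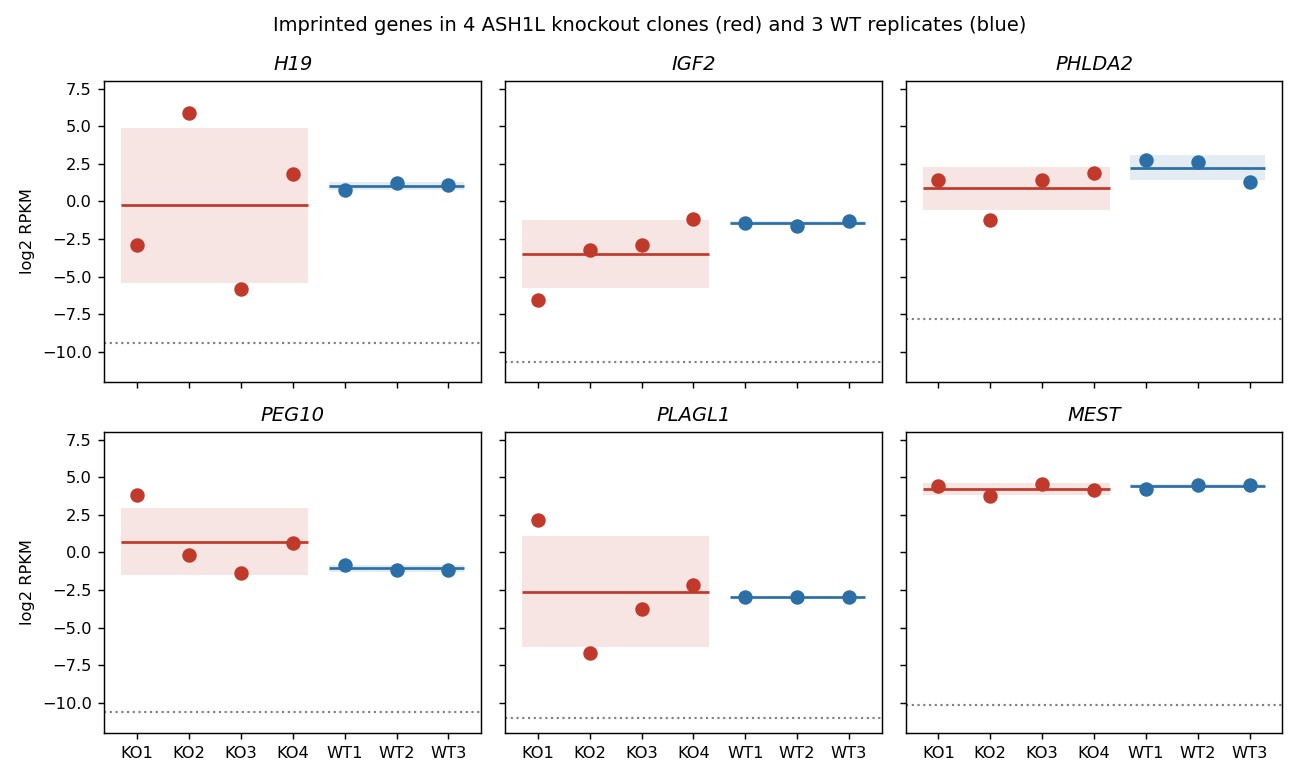
Levels of the 6 imprinted genes in log2 RPKM (vertical axis) in the 4 KO clones (red) and 3 WT replicates (blue). Points are single libraries, lines are group means and shaded bands are 1 SD either way. Dotted lines mark the estimated level without reads. H19 ran between -5.83 and 5.9 over the clones, against 0.73 to 1.19 over the WT replicates.

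PHLDA2, a growth-restraining gene of the placenta, was lowest in KO2. It lies at chr11:2928273-2929455 on the minus strand (ENSG00000181649), in the second domain of the 11p15.5 cluster that also holds CDKN1C, and no annotated gene overlaps it. Its level was 1.42, -1.26, 1.44 and 1.86 log2 RPKM in KO1 to KO4, against 2.78, 2.64 and 1.29 in WT1 to WT3. KO2 was the lowest library, but WT3 lay under KO1, KO3 and KO4, so the groups overlapped. About 25 reads stood behind the KO2 value, against 139 to 376 reads in the WT replicates. PHLDA2 was 11.3-fold lower in KO2 (log2 difference -3.49 ± 0.55 SE, limma adjusted p = 0.00554). The differences of -0.82, -0.8 and -0.38 in KO1, KO3 and KO4 did not pass (limma adjusted p = 0.262, 0.292 and 0.637). Those calls turned on WT3: without it they were -1.29, -1.27 and -0.86, with limma adjusted p of 0.00075, 0.00142 and 0.00643. Against the other clones KO2 differed by -2.83 ± 0.57 log2 units, which did not pass (limma adjusted p = 0.0825). Over all clones the mean was 0.86 ± 1.43 log2 RPKM in KO and 2.24 ± 0.82 in WT (SD, n = 4 and 3), and the difference of -1.37 ± 0.77 SE missed the threshold (limma adjusted p = 0.421). It was -0.67 without KO2.

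Other genes of the same domain lay nearer to WT in KO2. SLC22A18, a transporter gene next to PHLDA2, differed from the WT mean by -1.2, 0.7, -0.78 and -0.61 log2 units in KO1 to KO4. NAP1L4, a histone chaperone gene, differed by 0.66, 0.18, 0.29 and 0.47, and OSBPL5, a lipid transfer protein gene, by -0.5, 0.23, 0.6 and 0.04. In KO2, then, H19 was far above WT, PHLDA2 was far below it, and the neighbours given here lay within 1 unit of WT or, for IGF2, 1.8 units below it.

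**Figure D2:**
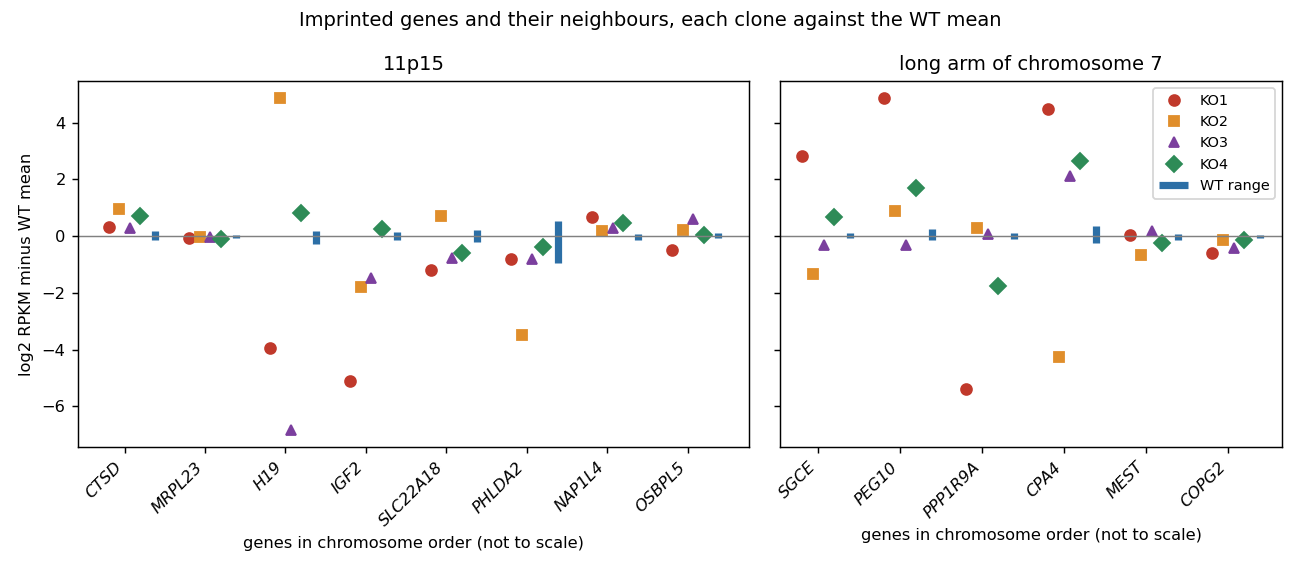
Difference from the WT mean in log2 RPKM (vertical axis) for each KO clone, for genes of 11p15.5 on the left and of the long arm of chromosome 7 on the right, in chromosome order and not to scale. Blue bars give the range of the 3 WT replicates; H19 and IGF2 stand out against MRPL23, which stays within -0.1 to -0.02 in all 4 clones.

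PEG10, a retrotransposon-derived gene read from the paternal copy, was high in KO1 and moderately raised in KO4 and KO2. It lies at chr7:94656325-94669695 on the plus strand (ENSG00000242265) and overlaps the start of SGCE, which runs the other way. PEG10 stood at 3.81, -0.18, -1.37 and 0.62 log2 RPKM in KO1 to KO4, against -0.81, -1.2 and -1.16 in WT1 to WT3. KO1, KO4 and KO2 lay above all WT replicates and KO3 below them. These are about 4598, 374, 114 and 725 reads in KO1 to KO4, against 215, 183 and 178 in WT1 to WT3. In the fit over all genes PEG10 was 29.2-fold higher in KO1 (log2 difference 4.87 ± 0.22 SE, limma adjusted p = 1.12e-05) and 3.21-fold higher in KO4 (limma adjusted p = 0.00279). In KO2 it was 1.84-fold higher (limma adjusted p = 0.0238), a call lost without WT2 (0.81, limma adjusted p = 0.0831). In KO3 the difference of -0.31 did not pass (limma adjusted p = 0.306). Set against the other clones KO1 was 4.12 ± 0.7 log2 units higher, which did not pass (limma adjusted p = 0.0602). The KO mean was 0.72 ± 2.22 log2 RPKM and the WT mean -1.06 ± 0.22 (SD, n = 4 and 3), a difference of 1.78 ± 1.09 SE (limma adjusted p = 0.462). It was 0.75 without KO1.

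SGCE, the epsilon-sarcoglycan gene that shares its imprinted promoter region with PEG10, differed from the WT mean by 2.81, -1.33, -0.31 and 0.66 log2 units in KO1 to KO4. It had the same sign as PEG10 in KO1, KO3 and KO4 and the opposite sign in KO2. PPP1R9A, which encodes the actin-binding protein neurabin and lies further along the same cluster, differed by -5.39, 0.28, 0.07 and -1.77. The median of the 49 genes within 5 Mb of PEG10 lay at -0.84, -0.14, -0.31 and -0.34 log2 units against the WT mean in KO1 to KO4. PEG10 in KO1 was therefore high within a stretch of chromosome 7 whose genes were on the whole lower than in WT.

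PLAGL1, a zinc finger transcription factor gene that restrains proliferation, was at a trace level in WT and well expressed in KO1 alone. It lies at chr6:143940300-144064599 on the minus strand (ENSG00000118495) and overlaps the imprinted transcript HYMAI. Its level was 2.16, -6.71, -3.77 and -2.14 log2 RPKM in KO1 to KO4, against -2.96, -2.93 and -2.95 in WT1 to WT3. KO1 lay above every other library, KO4 slightly above WT, and KO2 and KO3 below WT. About 1907, 5, 28 and 139 reads stood behind these values in KO1 to KO4, against 63, 72 and 67 in WT1 to WT3. PLAGL1 was 34.3-fold higher in KO1 in the fit over all genes (log2 difference 5.1 ± 0.27 SE, limma adjusted p = 2.62e-05). It was lower in KO2 (-3.76 ± 0.27, limma adjusted p = 0.000445), with a read ratio of WT to KO2 of 14.3 and a 95% exact interval of 6.01 to 44.4. The differences of -0.82 in KO3 and 0.81 in KO4 did not pass (limma adjusted p = 0.0601 and 0.0738). With 0.1 RPKM added to each value the KO2 difference was -1.07 and passed (limma adjusted p = 0.00472). Against the other clones KO1 was 6.36 ± 1.55 log2 units higher (limma adjusted p = 0.13). The mean was -2.61 ± 3.7 log2 RPKM in KO and -2.95 ± 0.02 in WT (SD, n = 4 and 3), and the difference of 0.33 ± 1.83 SE (limma adjusted p = 0.952) turned to -1.26 without KO1. The median of the 20 genes within 5 Mb lay at 0.41, -0.08, 0.01 and 0.31 log2 units against the WT mean in KO1 to KO4.

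MEST, which encodes an alpha/beta hydrolase-fold protein of growing tissues, was the steady member and the most highly expressed in WT cells per exon length. It lies at chr7:130486171-130506465 on the plus strand (ENSG00000106484), and its end meets that of COPG2. MEST was at 4.43, 3.73, 4.57 and 4.16 log2 RPKM in KO1 to KO4, against 4.25, 4.46 and 4.49 in WT1 to WT3. Its range of 0.84 log2 units was matched or exceeded by 51.4% of genes. KO2 was the lowest library, 1.59-fold below WT (log2 difference -0.67 ± 0.12 SE, limma adjusted p = 0.00974). The differences of 0.03, 0.17 and -0.24 in KO1, KO3 and KO4 did not pass (limma adjusted p = 0.867, 0.315 and 0.195). The median of the 41 genes around it was -0.67, -0.14, -0.27 and -0.23 log2 units against the WT mean in KO1 to KO4. Measured from that local median, MEST was 0.7 higher in KO1 (limma adjusted p = 0.00628) and 0.44 higher in KO3 (limma adjusted p = 0.0387). The KO and WT means were 4.22 ± 0.37 and 4.4 ± 0.13 log2 RPKM (SD, n = 4 and 3), a difference of -0.18 ± 0.2 SE (limma adjusted p = 0.696) that became 0.15 on the local scale.

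CPA4, a carboxypeptidase gene of the MEST cluster, was at 1.14, -7.62, -1.23 and -0.7 log2 RPKM in KO1 to KO4, against -3.61, -3.42 and -3.01 in WT1 to WT3. It was higher in KO1, KO3 and KO4 than in any WT replicate and lower in KO2. COPG2, a vesicle coat gene beside MEST, stayed within 0.61 log2 units of the WT mean, with differences of -0.61, -0.14, -0.41 and -0.13 in KO1 to KO4.

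Counted by clone in the fit over all 13142 genes, 4 of the 6 members passed in KO1, all 6 in KO2, 2 in KO3 and 2 for KO4. Of all genes the same test called 44.4% for KO1, 34.6% for KO2, 33.9% for KO3 and 26.7% for KO4. Only H19, PHLDA2 and MEST passed the low-value filter, and of these 3 the filtered fit called 3 in KO2 and 1 in each other clone, beside, for KO1 to KO4, 44.1%, 33.5%, 34.1% and 24.8% of the 11154 genes. In KO3 and KO4 the share of members called was close to that of all genes. Over the fits used for each member, IGF2 was lower in KO1, KO2 and KO3, PEG10 was higher in KO1, KO2 and KO4, and H19 and PLAGL1 were called in both directions.

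No member distinguished the 4 clones as a group from WT. None of the 3 filtered members passed in limma, and none of the 6 in the fit over all genes, where 0 also had an unadjusted p under 0.05. Among all genes 0.412% were called in the filtered fit and 0.426% in the full one. KO and WT values were apart without overlap in 0 of the 6 members, whereas this was so for 19% of the 13142 genes. Exact two-sided permutation tests gave p = 0.8 for H19, 0.229 each for IGF2, PHLDA2 and PEG10, 0.514 for MEST and 0.914 for PLAGL1. At these group sizes such a p cannot fall under 0.05. With each clone set against the other 3, limma called 0 members in any clone, beside 1.07%, 0.928%, 0.563% and 0% of genes for KO1 to KO4 in the full fit. Unadjusted p was under 0.05 for 3 members of KO1 (IGF2, PEG10, PLAGL1), 4 of KO2 (H19, PHLDA2, MEST, PLAGL1), H19 alone in KO3 and 0 in KO4, beside 2199, 2619, 2270 and 506 of the 13142 genes for KO1 to KO4.

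A gene was counted as switched off in a clone when its WT mean was at least 0 log2 RPKM and the clone was under -3, and as switched on in the opposite case. Under these limits 1 member in 1 clone qualified, H19 switched off in KO3, where 39 of the 13142 genes (0.297%) were switched off. H19 in KO1, at -2.93, and the WT mean of PLAGL1, at -2.95, lay just outside the limit. With limits of 1 and -2, H19 was also off and PLAGL1 on in KO1. Among all genes, KO1 had 1.15% switched off and 0.289% on, KO2 had 0.0609% off and 0.0685% on, KO3 had 0.297% off and 0.0913% on, and KO4 had 0.205% off and 0.145% on. No trace level reached the estimated level without reads, which is -9.39 log2 RPKM for H19, -10.66 for IGF2 and -10.98 for PLAGL1. Like the reads, these levels are approximate for H19 and IGF2. In bulk RNA, fewer cells with the transcript and less transcript per cell cannot be told apart.

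The members varied widely for genes of this table. They were chosen with earlier results of these data known, so their shares beside all genes are descriptive and test nothing. Their ranges over the 7 libraries were 11.72 log2 units for H19, 8.86 for PLAGL1, 5.37 for IGF2, 5.18 for PEG10, 4.04 for PHLDA2 and 0.84 for MEST. As wide a range as that of PLAGL1 was found in 109 genes, and as wide a range as those of IGF2, PEG10 and PHLDA2 in 2.92%, 3.13% and 4.99% of genes. Ranges above 4 log2 units occurred in 5 of the 6 members, in 7 of 36 other imprinted genes in the table and in 5.07% of all genes. Ranges above 2 occurred in the same 5 members, in 8 of the 36 and in 14.7% of all genes. The median range was 5.28 in the members, 1.03 in the other imprinted genes and 0.85 in all genes. H19, IGF2 and PLAGL1 each had a library with 2 to 5 reads, where the lower end of the range carries a large counting error.

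**Figure D3:**
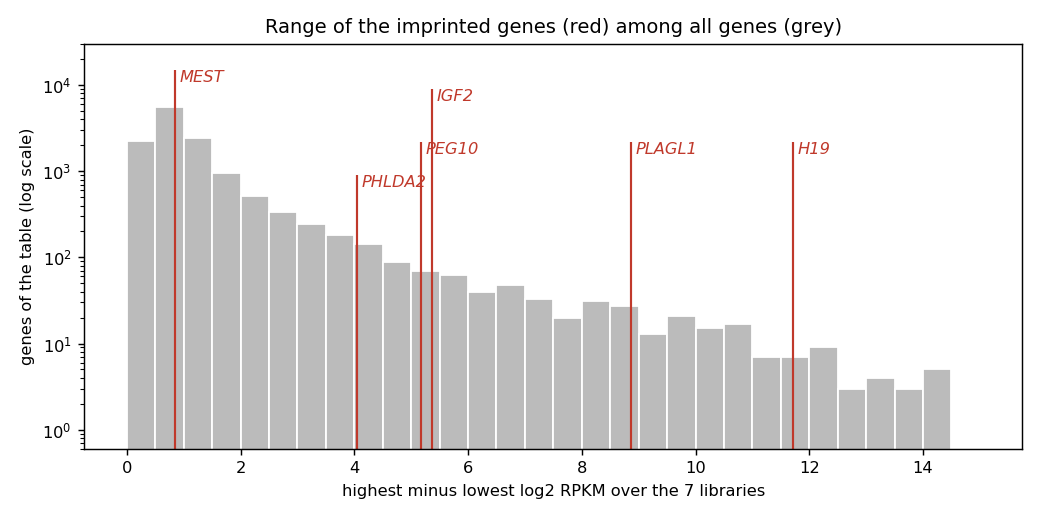
Number of genes (vertical axis, log scale) by the highest minus the lowest log2 RPKM over the 7 libraries (horizontal axis), for all 13142 genes in grey. Red lines mark the 6 imprinted genes: MEST at 0.84 sits among most genes, and H19 at 11.72 lies where 28 genes have as wide a range.

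Of 72 other genes listed as imprinted in human or mouse, some in few tissues only, 36 had a row and 26 passed the low-value filter. Between the KO clones and WT, limma called 0 of the 26, with 4 at an unadjusted p under 0.05 (beside 1753 of all 11154 genes), and the median difference was -0.13 log2 units, beside -0.02 for all genes tested. The smallest p went to INPP5F, an inositol phosphatase gene (-0.66 ± 0.13 SE, limma adjusted p = 0.085). Clone by clone, limma called 6 higher and 10 lower in KO1 (61.5% of the 26), beside 19.2% higher and 24.9% lower of all genes tested. KO2 had 5 higher and 6 lower (42.3%), beside 15.5% and 18%. KO3 had 2 higher and 8 lower (38.5%), beside 14.2% and 19.9%. KO4 had 4 higher and 6 lower (38.5%), beside 10.4% and 14.4%. Lower calls outnumbered higher ones in each clone, among these genes as among all genes.

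The widest range among these genes was that of DDC, 9.57 log2 units. DDC, which encodes aromatic amino acid decarboxylase and lies beside the imprinted GRB10, was at -4.88, 4.69, 2.88 and 0.66 log2 RPKM in KO1 to KO4, against 3.54, 3.54 and 3.42 in WT1 to WT3. Limma called it lower in KO1 (-8.38 ± 0.12 SE, adjusted p = 3.15e-07), KO4 (-2.84, adjusted p = 6.79e-05) and KO3 (-0.62, adjusted p = 0.0119), and higher in KO2 (1.19, adjusted p = 0.00145). GRB10 itself, an adaptor protein gene, stayed at 4.49, 4.4, 4.56 and 4.62 in KO1 to KO4, against 4.13, 4.4 and 4.73 in WT1 to WT3. ATP10A, a phospholipid flippase gene of the Prader-Willi and Angelman region, was at -3.25, 2.06, 0.46 and 1.07 in KO1 to KO4, against 2.84, 2.73 and 2.93 in WT1 to WT3. All 4 clones lay below every WT replicate, with limma differences of -6.08 in KO1, -2.37 in KO3 and -1.77 in KO4 (adjusted p = 1.02e-06, 0.000171 and 0.000574).

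ATP10A also set KO1 apart from the other clones (log2 difference -4.45 ± 0.55 SE, limma adjusted p = 0.0253), as did SLC22A3, an organic cation transporter gene (-3.65 ± 0.44, limma adjusted p = 0.0236). In that comparison 0.897% of the 11154 genes were called in KO1 and 0.717% in KO2. SLC22A3 was at 0.13, 4.51, 3.57 and 3.24 log2 RPKM in KO1 to KO4, against 3.88, 3.91 and 3.92 in WT1 to WT3. The transcription factor gene WT1, which shares only its name with the first wild type library, was lower in KO2 than in the other clones (-2.34 ± 0.26, limma adjusted p = 0.0302). Of the other listed genes, limma called 0 in KO3 and KO4 against the other clones, with 3 and 0 at an unadjusted p under 0.05, and 0.574% and 0% of all genes were called there.

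Of the 36, DDC and ATP10A were switched off in KO1, beside 1.15% of all genes. CPA4 and DIRAS3 were switched on there, beside 0.289%, and DIRAS3 was on in KO4 too, beside 0.145%. With limits of 1 and -2, DDC, ATP10A and CPA4 still counted as switched in KO1, and DIRAS3 no longer did in either clone. DIRAS3, a growth-suppressing Ras-like GTPase gene read from the paternal copy, was at 0.58, -4.1, -0.85 and 0.77 log2 RPKM in KO1 to KO4, against -6.48, -4.86 and -4.48 in WT1 to WT3. All 4 clones lay above every WT replicate. SNRPN, which encodes a splicing factor subunit and lies in the Prader-Willi region, was at 1.83, 2.15, 2.17 and 1.63 in KO1 to KO4, against 2.12, 2.31 and 2.59 in WT1 to WT3, with limma calling the KO4 difference of -0.71 (adjusted p = 0.0395). In KO4 FAM50B, a retrotransposed gene, was also lower (-0.83 ± 0.16 SE, limma adjusted p = 0.0133). In KO2 ZC3H12C, a zinc finger gene, was lower (-0.91 ± 0.18 SE, limma adjusted p = 0.0119).

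**Figure D4:**
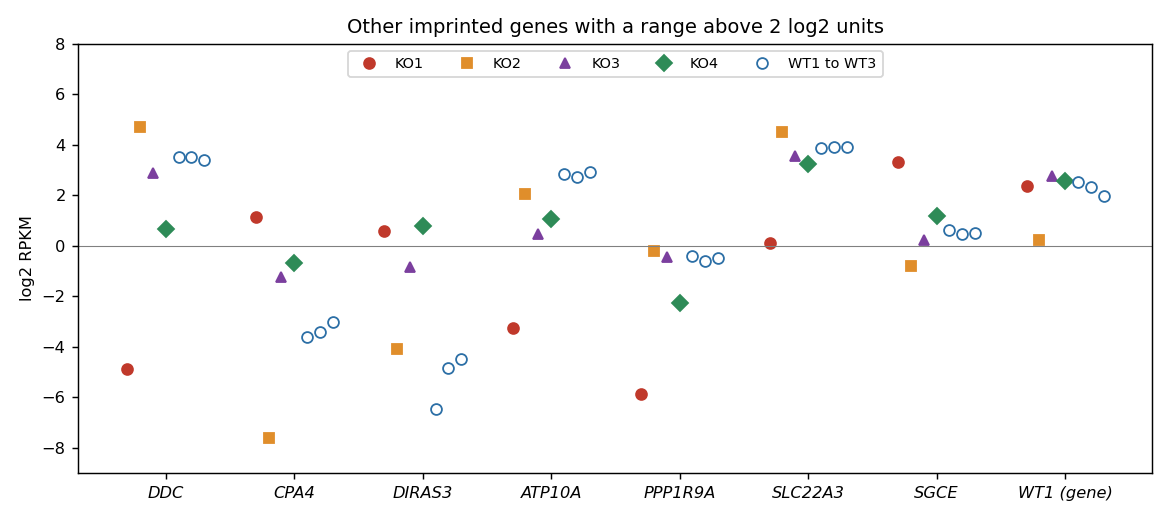
Levels in log2 RPKM (vertical axis) of the 8 other imprinted genes whose range exceeded 2 log2 units, in KO1 to KO4 (filled symbols) and WT1 to WT3 (open circles); points are single libraries. KO1 is the lowest library for DDC, ATP10A, PPP1R9A and SLC22A3, and the WT circles lie close together for each gene except DIRAS3.

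Among the 25 tested genes listed as writing, reading or protecting imprints, none passed in the group comparison, beside 0.412% of all genes tested. A list of 32 such genes (DNA methyltransferases, TET enzymes, the TRIM28 and SETDB1 silencing machinery, CTCF, cohesin and Polycomb subunits) had 26 rows, 25 of them tested. Limma called 0 of 25 between KO and WT, with 6 at an unadjusted p under 0.05, beside the same 1753 of 11154 genes. The 3 with the smallest p were EZH2, the Polycomb methyltransferase (-0.46 ± 0.11 SE, limma adjusted p = 0.138), its partner SUZ12 (0.44, limma adjusted p = 0.184) and the cohesin subunit STAG2 (-0.3, limma adjusted p = 0.242). EZH2 was at 4.43, 4.48, 4.77 and 4.54 log2 RPKM in KO1 to KO4, against 5.01, 5.01 and 5.0 in WT1 to WT3, so all 4 clones lay below WT. Clone by clone limma called 4 higher and 6 lower in KO1 (40%), 4 higher and 3 lower in KO2 and again in KO3 (28% each), and 1 higher and 4 lower in KO4 (20%), each below the share of all genes tested. The de novo methyltransferase genes were called lower in some clones, DNMT3A in KO1 (-0.92) and KO4 (-0.86) and DNMT3B in KO2 (-0.97) and KO4 (-0.9). In KO3 both were above every WT replicate, DNMT3A at 0.91 and DNMT3B at 1.28 log2 RPKM. TET2 and TET3, which encode enzymes that oxidise methylated cytosine, were called higher in KO1 (0.79 and 0.81) and KO3 (1.15 and 1.16). TET1, which failed the filter, was at -3.4, -2.34, -2.13 and -3.04 in KO1 to KO4, against -2.4, -2.67 and -2.62 in WT1 to WT3. CBX5, the gene of heterochromatin protein HP1 alpha, was called higher in KO2 (0.97), KO3 (0.69) and KO4 (0.52). Single calls went to ARID4B in KO1 (-0.8), the imprint-binding zinc finger gene ZNF445 in KO2 (0.71), SUZ12 in KO2 (0.63), the cohesin gene SMC1A in KO3 (-0.64) and EZH2 in KO4 (-0.47), among those with the 4 largest differences per clone. Limma adjusted p of these calls ran from 0.00148 to 0.0227. CTCF was at 4.38, 4.7, 4.61 and 4.56 in KO1 to KO4, against 4.49, 4.45 and 4.35 in WT1 to WT3, and the maintenance methyltransferase gene DNMT1 was at 4.78, 4.3, 4.81 and 4.45, against 4.58, 4.51 and 4.48.

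For each member with a range above 2 log2 units, the genes most like it over the 7 libraries were sought by Pearson's r. The search covered the 1131 tested genes whose range also exceeded 2 log2 units, so a match need not swing as far as the member. The values of r describe 7 libraries of which 3 are WT replicates, and carry no test. H19 was most like CYP27A1, a sterol hydroxylase gene on chromosome 2 (r = 0.996), GBP3, a guanylate-binding protein gene (0.987), and EPB41L1 (0.982). CYP27A1 was at -0.43, 3.66, -1.71 and 1.68 log2 RPKM in KO1 to KO4, against 1.52, 1.75 and 1.68 in WT1 to WT3, the same order of clones as H19. PLAGL1 was most like the homeobox gene SIX4 (0.99), SGCE (0.987) and LDLRAD3 (0.981). PEG10 was most like TPD52 (0.976), TBC1D1 (0.972) and EMB (0.936), which were highest in KO1 too. IGF2 was most like AC006145.4 (0.984), the hair keratin gene KRT81 (0.982) and GMFG (0.98), and PHLDA2 like TMEM160 (0.968), RP11-1069G10.2 (0.923) and the glutamate receptor gene GRIN2D (0.922).

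Each KO value rests on 1 library of 1 clone, and the clone tests use the spread of the 3 WT replicates. A difference between clones, whether from ASH1L, from the stop position or from the founder cell of the clone, cannot be told apart here.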

How the data were processed

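RNA was made into libraries with an Illumina TruSeq kit, per the labels' protocols. The submitters' processing notes name STAR 2.5.3a, HTSeq 0.11.2, edgeR (no version) and, for trimming, Trim Galore 0.4.1, on hg38. The authors deposited 1 table of log2 RPKM for 13142 genes and 7 libraries, which is a normalized unit, so no count test was run. Genes above 0 log2 RPKM in at least 3 libraries (11154) entered limma 3.58.1 (R 4.3.3, intensity trend, Benjamini-Hochberg adjustment, threshold 0.05); IGF2, PEG10 and PLAGL1 failed that filter and were tested over all 13142 genes. Fits set KO against WT, each clone against WT, and each clone against the other clones. The code was tested on simulated data. Reads were estimated with an assumed prior count of 0.25 and exon lengths from GENCODE release 29, which placed 95.4% of genes.

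All 10 members are named. Of the other imprinted genes, up to 4 called genes with the largest difference per comparison and all switched ones are named; of the imprint maintenance genes, those called for KO against WT or else the 3 with the smallest p; then the 3 genes most like each member and the nearest gene on each side of H19. CTSD, C11orf21, NAP1L4, OSBPL5, PPP1R9A, COPG2, GRB10, CTCF, DNMT1, TET1 and up to 4 called imprint maintenance genes per clone were added after their values were seen. The members and lists were chosen with earlier results of these data known. Alternatives were other filters, 0.1 RPKM added, quantile normalization, centring on genes within 5 Mb, no variance trend, each library left out, other limits for switching and a replicate block.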

Additional observations from a re-analysis of the deposited data

Results flagged for a closer look

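By Dixon's ratio, PHLDA2 in KO2 stood apart from the other clones, whereas its limma difference from them of -2.83 ± 0.57 log2 units did not pass. The gap from KO2 to the nearest clone was 0.86 of the range of the 4 clones, past Dixon's 95% limit for 4 values. The values were -1.26 log2 RPKM in KO2, beside 1.42, 1.44 and 1.86 in KO1, KO3 and KO4, against 2.78, 2.64 and 1.29 in WT1 to WT3. Chance flags about 1 in 20 groups, a rate that does not cover the choice of these genes with earlier results known. The lowest and highest clone were examined for each of 6 genes. About 25 reads stood behind the KO2 value.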

How the results depend on the processing

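Of 188 values of single members under the alternatives, 180 kept their direction and side of the threshold, 5 no longer passed and 3 turned sign. The 188 take in each member between KO and WT and the clone differences from WT that passed at first. Calls gained elsewhere are not among them. These were PHLDA2 in KO1, KO3 and KO4 without WT3, and MEST in KO1 and KO3 when centred on neighbours. Against the other clones H19 was gained in KO2 without KO4 and in KO3 without KO1. Between KO and WT, H19 ranged from -3.33 to 0.58 with each library left out, PLAGL1 from -1.26 to 1.7, and MEST turned to 0.15 when centred on its neighbours; none passed in any setting. PEG10 in KO2 no longer passed with quantile normalization (0.74, limma adjusted p = 0.0521), nor H19 in KO4 when centred on its neighbours (0.78, limma adjusted p = 0.0726) or with the stricter filter (0.8, limma adjusted p = 0.05). Of the 3 filtered members, 3 passed in KO2 against WT and 1 in each other clone. Without a filter these became 4, 6, 2 and 2 of 6 for KO1 to KO4, because IGF2, PEG10 and PLAGL1 were then tested. Centred on neighbours they were 2 in KO1, 2 in KO3 and 0 in KO4, and with the stricter filter 0 in KO4. With each replicate left out they ranged from 1 to 2 in KO1, 1 to 2 in KO3 and 0 to 2 in KO4, the upper values without WT3 (PHLDA2). Against the other clones the count ranged from 0 to 1 in KO2 and in KO3. Switched members in KO1 numbered 0, and became 2 with the looser limits and 1 with quantile normalization.

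Same-numbered KO and WT libraries did not deviate together (r = 0.06, 0.066 and -0.012). The clones spread more than the WT replicates (median SD of 0.3 against 0.1 log2 units), so a weak pairing could go unseen. With the replicate block, 0 members passed between KO and WT and H19 differed by -1.97 ± 2.18 SE (limma adjusted p = 0.752). The block is the number in the sample title, and no label pairs a clone with a WT replicate. KO4 has no WT library of its number, so the block in effect leaves KO4 out. Without KO4 the H19 difference was -1.97 too. Depth limits the trace values: at 2 to 5 reads a log2 difference depends on the prior count, and adding 0.1 RPKM moved H19 in KO3 to -4.17 and IGF2 in KO1 to -2.07.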
